A study of Mus musculus with 4 samples.

Results

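Alveolar type II cells of Tlr3-deficient mice carrying a tumor under the skin were set against the same cells of Tlr3-deficient mice without a tumor. The comparison rests on 2 of the 4 arrays in the series, chosen by the genotype and tumor labels and not by any measured value, and the other 2 arrays hold the matching wild-type (WT) pair. According to the labels, the mice were Tlr3-/- females, the tumor was Lewis lung carcinoma, a mouse lung cancer line, inoculated subcutaneously, and the lungs were taken 2 weeks later. The mice without tumor are described only as not inoculated. Type II cells were purified from the dissociated lungs on a flow cytometer and their total RNA was amplified and hybridised in 1 colour (Cy3). Neither the strain, the age, the Tlr3 allele, the antibodies of the sort nor the number of mice behind each array is given in the labels. The deletion is carried by the whole animal, so the tumor-bearing and the tumor-free mice both lack Tlr3 in every cell, and what they share cannot appear as a difference here.

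Type II cells make pulmonary surfactant, the lipid and protein film that keeps alveoli open, and they can divide and give rise to the flat type I cells through which gas is exchanged. They also secrete antimicrobial proteins and chemokines and present antigen. TLR3 is an endosomal receptor for double-stranded RNA that signals through the adaptor TICAM1 (TRIF) to interferon regulatory factors and NF-kB, leading to interferons and chemokines. The question put here is what a distant tumor leaves different in type II cells when that receptor is missing.

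Levels are given as log2 of the processed spot intensity relative to the 75th percentile of the same array, so that 0 is that percentile. That percentile was an intensity of 761 without tumor and 907 with tumor, 63.3% and 65.0% of the gene spots were well above background respectively, with 0 saturated spots. With a single array in each group nothing can be said of the spread between mice, and p-values are left out. Among 176 probes spotted more than once within an array (1649 spots), the log2 difference between the arrays had a standard deviation (SD) of 0.11 from spot to spot, which covers spots and not animals. A gene counted as higher or lower when its level differed 2-fold or more. Where its probe was well above background on only 1 of the 2 arrays the difference is a lower bound, written "at least", taken against the higher of the dim value and the lowest signal called well above background on that array. A gene well above background on the tumor array alone could not be called lower, nor one above it without tumor alone higher. This limits the counts and medians of every list that holds bounds. The 2 arrays lie on different slides, so slide and tumor cannot be told apart.

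The labels were checked first on Tlr3 and on sex-linked genes. Tlr3 read -5.45 without tumor and -5.30 with tumor, against -3.92 and -3.95 in WT without and with tumor. In the Tlr3-deficient pair it was not well above background without tumor but was so with tumor. Whether the probe (mm9 chromosome 8, 46481729 to 46481788) lies in the deleted part of the gene is unknown from the labels, so it checks the genotype only in part. Although all mice are labelled female, Ddx3y (1.07), Eif2s3y (1.12), Kdm5d (-1.27) and Uty (-3.95), all on the Y chromosome, were well above background on the array labelled Tlr3-deficient without tumor. None of these 4 genes was so on any of the other 3 arrays. Xist, the noncoding RNA of X inactivation, read -4.05 on that array and 3.80 with tumor, against 4.06 and 4.04 in WT. The array labelled Tlr3-deficient without tumor is therefore the control of every difference below and differs from the tumor array in sex-linked transcripts as well as in slide. Sex, slide and tumor cannot be told apart, also for genes on other chromosomes, and no value without this array can be had. Probes placed on chromosomes X and Y were left out of what follows (1489 of 41174).

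Of 26570 genes probed, 15937 were well above background on both arrays, 1013 with tumor alone and 579 without tumor alone, which gave 17529 genes tested. With tumor 801 genes (4.57%) were at least 2-fold higher, 317 of them as bounds, and 669 (3.82%) were lower, 274 as bounds. The median difference of all genes tested was -0.00 and 79.8% lay within 1.5-fold, with quartiles at -0.26 and 0.24. Most of the transcriptome thus sat close to the diagonal, with antibody and neutrophil genes far above it and matrix genes below. The WT pair, measured the same way, had 971 of 17354 genes higher (5.60%) and 270 lower (1.56%). In the Tlr3-deficient pair 54.5% of the genes called were higher. These counts are the background for each gene list below, which is described by its members tested, the number higher and lower and its median.

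**Figure D1:**
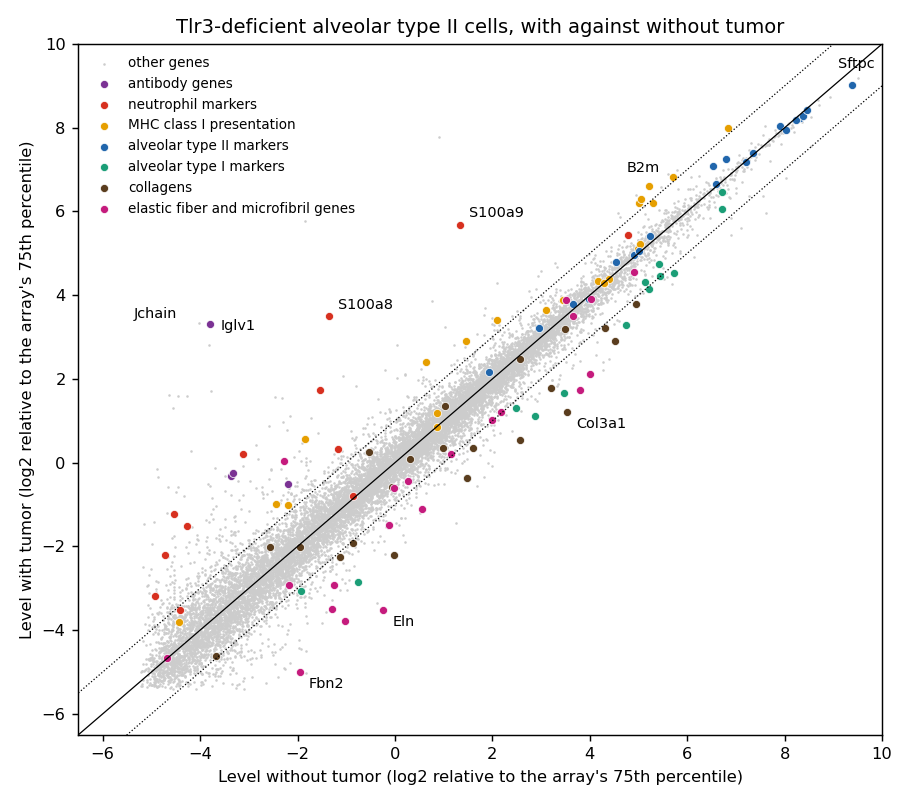
Level of each gene well above background on both Tlr3-deficient arrays, without tumor (horizontal axis) and with tumor (vertical axis), both as log2 relative to the array's 75th percentile. Each point is 1 gene, coloured by list, the solid line marks equal levels and the dotted lines 2-fold differences. Jchain and Iglv1 lie more than 7 log2 units above the line, type II markers lie on it and Eln lies 3.28 below.

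The sorted cells carried the type II program on both arrays. Sftpc, the surfactant protein found in these cells alone in the alveolus, read 9.38 without and 9.03 with tumor, and Sftpb, needed to form the surfactant film, 7.21 and 7.19. Abca3, the lipid pump of the lamellar body, read 4.91 and 4.95, and the lineage transcription factor Nkx2-1 3.66 and 3.79. All 20 type II markers were well above background on both arrays, 0 were called in either direction, and their median difference was 0.05. The widest of them were Scd1, a fatty acid desaturase, at 0.56 and Sftpc at -0.36. Ribosomal protein genes (34 tested, 0 called, median 0.03) and respiratory chain genes (25 tested, 0 called, median 0.04) sat equally close to 0. The airway secretory gene Scgb1a1 was also bright on both (8.68 and 8.65), and club cell markers as a list had a median of 0.22 with 0 of 12 called. Markers of ciliated cells were mostly a little higher with tumor (median 0.51, 1 of 13 called). In such bulk RNA, more cells of a type and more RNA per cell cannot be told apart, which applies to each marker list below.

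**Figure D2:**
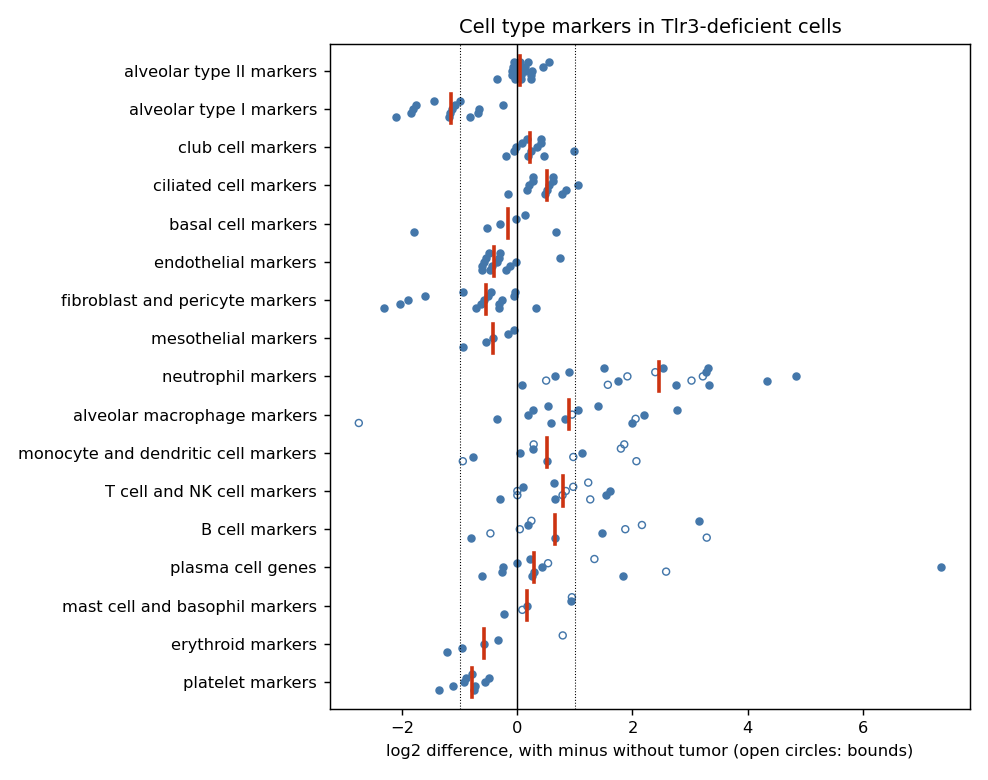
log2 difference with minus without tumor (horizontal axis) of the members of 17 cell type marker lists in Tlr3-deficient cells, 1 point per gene, open where the value is a bound. Red bars are list medians, and dotted lines mark 2-fold. Type II markers cluster at 0, neutrophil markers reach 4.85 and all 14 type I markers lie below 0.

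Antibody transcripts were among the widest differences. Igh-VJ558, the file's name for a heavy chain probe (mm9 chromosome 12, 114496985 to 114497044), read 0.90 without tumor and 7.77 with tumor, 117-fold higher, against 2.62 and 3.65 in WT. Whether that probe reads a variable or a constant segment was not tested. The widest measured difference was that of AF152371, a transcript without a gene symbol (chromosome 6, 70676667 to 70676726), which read -1.85 and 5.78 (198-fold). It lies just past the last kappa probe that carries a segment symbol. The largest bound, at least 720-fold, belonged to ENSMUST00000103416, also without a symbol (chromosome 12, 114525673 to 114525732). Jchain, which links immunoglobulin chains into dimers and pentamers (mm9 chromosome 5, 88949919 to 88949978), read -4.03 without tumor and 3.33 with tumor, a 165-fold difference. The lambda light chain gene Iglv1 (chromosome 16, 19061826 to 19061885) read -3.80 and 3.31, a 138-fold difference. In WT the same genes read -2.75 and -1.18 for Jchain and -0.97 and -0.08 for Iglv1, so the tumor array of the Tlr3-deficient pair stood above all the other 3. Among the antibody genes with a segment symbol, from RefSeq or the array's own names, several kappa and heavy chain variable genes were well above background with tumor but not without. Igkv3-4 reached 1.20 with tumor (at least 85.5-fold higher), Igkv4-59 0.67 (at least 59.2-fold), Igkv4-55 0.65 (at least 58.4-fold) and Ighv1-77 0.56 (at least 55.1-fold). Of 19 antibody genes tested 18 were higher and 0 lower, with a median of 3.08 (2.17 with normexp), against 4 of 10 and 0.87 in WT. Of the 19, 15 were tested only because they were well above background on the tumor array, and these could not be called lower. Variable genes of a family are close in sequence, so which member was transcribed is uncertain, and the locus as a whole is the firmer unit.

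Taken by locus on mm9, the antibody probes were higher at all 3 loci. Each locus is taken here as the span of its probes with an antibody segment symbol, which can be narrower than the locus itself. Igh-VJ558, AF152371 and ENSMUST00000103416 lie just outside these spans and are not in the counts. In the heavy chain locus (chr12:114596396-117100268) 12 of 47 probes tested were well above background without tumor and 46 with tumor, 40 were higher and 1 lower, and the median difference was 3.05. In the kappa locus (chr6:67790101-70672917) 12 of 61 were well above background without tumor and 60 with, 54 were higher and 1 lower, with a median of 3.80. In the lambda locus (chr16:19061826-19085406) 2 of 8 were so without tumor and 8 with, and all 8 were higher, with a median of 5.44. At each locus, probes well above background with tumor alone could not be called lower. Chromosome 6 and chromosome 12 had the largest shares of genes called in either direction, 15.07% and 13.02%, followed by chromosome 17 with 10.71%, while the other autosomes lay between 5.64% and 9.48%. The antibody transcripts are counted as genes in these shares, which are therefore not a separate result. Constant regions with a symbol were named after their values were seen: Ighm, the IgM heavy chain, read -2.20 and -0.51 (3.21-fold higher, 3.60-fold in WT) and Ighg3 -3.37 and -0.31 (8.31-fold, 3.30-fold in WT). Igh-VJ558, ENSMUST00000103416 and ENSMUST00000103426 had wider differences, and whether they read these or other constant regions was not tested. ENSMUST00000103426 has no symbol and lies inside the heavy chain span (chromosome 12, 114659100 to 114659159). It read -3.81 and 2.82 (99.4-fold higher, 28.3-fold in WT).

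Genes of the cells that make antibody were higher less uniformly. Among 13 plasma cell genes tested 4 were higher and 0 lower, with a median of 0.29. Besides Jchain these were Mzb1, an endoplasmic reticulum cochaperone of antibody assembly (-3.0 and -1.16, 3.57-fold), the B cell coactivator Pou2af1 (at least 6.0-fold) and the receptor Tnfrsf13b (at least 2.53-fold, which was not 2-fold with normexp or with the mean of its probes). Xbp1 and Prdm1, transcription factors of plasma cells that epithelia also use, differed by 0.42 and 0.26, and Sdc1, made by epithelia too, by -0.26. B cell markers had 5 of 11 higher (3 with normexp) with a median of 0.66, and 6 of the 11 values were bounds. Spib, a transcription factor of B cells and dendritic cells, was at least 9.78-fold higher and Fcer2a, the low-affinity IgE receptor, read -3.49 and -0.33 (8.96-fold). Cd79a, a signaling chain of the B cell receptor, was not well above background without tumor and read -4.98 with it. Pigr, the epithelial receptor that carries dimeric IgA and IgM into the airway lumen, read -3.13 and -0.08, 8.29-fold higher, against -2.66 and -0.84 in WT.

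Neutrophil transcripts were next in size. S100a8, a subunit of calprotectin (mm9 chromosome 3, 90473778 to 90473837), read -1.36 without and 3.49 with tumor, and S100a9, its partner (chromosome 3, 90496585 to 90496644), 1.34 and 5.68. On the WT arrays S100a8 read -1.48 and 3.90 and S100a9 1.14 and 6.31. In both genotypes the tumor array was therefore above the array without tumor by more than 4 log2 units. Retnlg, a resistin-like secreted protein of neutrophils, read -3.12 and 0.21 (10.1-fold) and Il1r2, the decoy receptor for interleukin-1, -4.54 and -1.23 (9.95-fold). Of 18 neutrophil markers tested 14 were higher and 0 lower, with a median of 2.46, and in WT 13 of 17 with the same median of 2.46. With normexp 10 of the 18 were higher and the median was 1.37. Of the 18, 6 were well above background with tumor alone and could not be called lower. The summed level of the marker list, in units of the array's 75th percentile, was 32.3 without and 115 with tumor, and 12 and 18 of its 19 members were well above background. In WT the sums were 34.1 and 142.

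The neutrophil genes spanned primary, secondary and tertiary granules and several receptor families. Of 4 primary granule genes tested 3 were higher (2 with normexp) and 0 lower, with a median of 1.77. Secondary and tertiary granule genes had 6 of 14 higher (5 with normexp), 0 lower and 8 under 2-fold. Their median was 0.95, and 5 of the 14 were bounds. Among primary granule genes Mpo, myeloperoxidase, read -4.27 and -1.51 (6.79-fold) and Ctsg, cathepsin G, -4.73 and -2.20 (5.76-fold), whereas in WT Mpo read -4.64 and -4.20. Prtn3, proteinase 3, had a bound of 1.41-fold and was not called. Secondary granule genes included Ltf, lactoferrin (-1.55 and 1.73, 9.71-fold), Ngp (at least 9.33-fold) and the cathelicidin Camp (at least 8.14-fold). The tertiary granule protease Mmp9 was at least 3.76-fold higher and the collagenase Mmp8 differed by 0.89. Lcn2, which epithelia also secrete, read 4.79 and 5.44 and was not called. Stefin genes, inhibitors of cysteine proteases, were higher as a cluster (Stfa2l1 4.68-fold, Stfa1 3.35-fold, Stfa2 2.52-fold), though near-identical copies make the split between them uncertain. Stfa1 (0.62), Stfa2 (0.40) and Mmp9 (0.65) were under 2-fold on the log2 scale with normexp.

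Of 23 receptors of neutrophils and other myeloid cells 17 were higher and 0 lower, with a median of 2.40, and with normexp 12 were higher with a median of 1.14. Of the 23, 10 were well above background with tumor alone and could not be called lower. Clec4e (Mincle), a lectin that binds mycobacterial and dead-cell lipids, read -4.65 and -0.58, 16.8-fold higher. Clec7a (Dectin-1), the receptor for fungal beta-glucan, read -3.70 and -0.14 (11.8-fold), and the inhibitory receptor Pirb -2.86 and 0.43 (9.75-fold). Mefv, the pyrin inflammasome sensor, was at least 11.4-fold higher, Cd300lf at least 11.1-fold and Trem1, an amplifier of myeloid activation, at least 9.46-fold. The formyl peptide receptor Fpr1 was at least 8.10-fold higher. Csf3r, through which G-CSF acts on neutrophils, was at least 5.26-fold higher and the chemokine receptor Cxcr2 at least 2.97-fold, but both were under 2-fold with normexp (0.98 and 0.61). Cxcr4, which holds neutrophils in the marrow and is also found on other cells, differed by -0.61. The subunit Ncf4 (-2.82 and 0.08, 7.47-fold) and the GTPase Rac2 (4.76-fold) of the phagocyte NADPH oxidase were higher, while Cyba, expressed in many tissues, differed by 0.48.

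Genes shared by leukocytes were higher as well. Ptprc (CD45) read -3.79 without and -0.55 with tumor, a 9.45-fold difference, against -3.21 and -0.53 in WT. Coro1a, an actin regulator, read -3.14 and 0.14 (9.74-fold), Cd52 -2.16 and 1.12 (9.72-fold) and the signaling adaptor Tyrobp -1.72 and 1.07 (6.94-fold). The differences were of like size in the WT pair, where Coro1a read -3.10 and 0.19. Of 18 pan-leukocyte genes tested 13 were higher and 0 lower with a median of 1.56, and 13 of 18 in WT with a median of 1.53. The list's summed level was 40.3 without and 58.5 with tumor in Tlr3-deficient cells and 38.8 and 55.0 in WT, and 15 and 18 of the 19 genes were well above background in the Tlr3-deficient pair. Type II markers kept their summed level (3252 and 3165). What leukocyte RNA contributes to the immune genes described below was not tested.

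Markers of single leukocyte types other than neutrophils were mostly dim. Alveolar macrophage markers had 6 of 14 higher and 1 lower with a median of 0.89, against 2 of 13 and 0.15 in WT. The integrin Itgax read -4.57 and -1.80 (6.81-fold), the chitinase-like protein Chil3 1.04 and 3.24 (4.59-fold) and the scavenger receptor Marco -2.54 and -1.15 (2.63-fold). The ribonuclease Ear1 (-3.30 and -1.31, 3.99-fold) has near-identical paralogs and is uncertain. Pparg, which directs macrophage maturation and lipid use, differed by 0.28, Fabp4 by 0.19 and Car4 by -0.36. Slc7a2, an arginine transporter, was the member called lower, at least 6.75-fold. T and NK cell markers had 4 of 13 higher with a median of 0.78, among them Cd8b1 (2.91-fold), the cytotoxic granule gene Nkg7 (3.04-fold), Cd3d (at least 2.41-fold) and Lck (at least 2.35-fold), but 0 of 13 with normexp. Of these 13, 7 were well above background with tumor alone and could not be called lower. Cd3e read -3.17 and -3.48. Among monocyte and dendritic cell genes the lipopolysaccharide coreceptor Cd14 read 2.50 and 3.63 (2.18-fold) and Ccr2 was at least 4.19-fold higher, which the mean of its probes reduced to 0.15.

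Chemokines and cytokines differed gene by gene. Il1b, made by myeloid cells, read -2.29 and 0.98, 9.66-fold higher, and in WT -1.85 and 1.13. The neutrophil attractants of epithelia were less affected. Cxcl1 read 2.78 and 3.16, Cxcl15 (lungkine) 7.36 and 7.41 and Cxcl3 -3.41 and -2.70, all under 2-fold. Cxcl2 was 2.27-fold and Cxcl5 2.25-fold higher from dim levels (-3.24 and -5.05 without tumor), and both were under 2-fold with normexp (0.69 and 0.23). The log2 value table that the authors deposited gives 0.19 for Cxcl2. Cxcl5 reached -1.52 on the WT tumor array, above the -3.88 read on the Tlr3-deficient tumor array. In all 4 of 10 such genes were higher (2 with normexp), with a median of 0.85, and 2 of 10 in WT. Other chemokines had 7 of 20 higher (4 with normexp) and 0 lower with a median of 0.29. Ccl20, which draws CCR6-bearing lymphocytes and dendritic cells to epithelia, read -3.73 and -1.10 (6.17-fold), Ccl5 -2.74 and -0.57 (4.48-fold), Ccl9 -2.74 and -0.69 (4.13-fold) and Ccl6 -0.55 and 1.07 (3.08-fold). Ccl2 (-1.02 and -1.08), Cxcl10 (0.53 and 0.73) and Cxcl16 (2.58 and 2.34) stayed within 1.5-fold.

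Genes of MHC class I antigen presentation were higher with tumor in the Tlr3-deficient pair. Proteasomes cut cytosolic proteins to peptides, the TAP transporter moves these into the endoplasmic reticulum, and class I heavy chains with beta-2-microglobulin carry them to the surface for CD8 T cells. Of 23 genes tested 11 were higher and 0 lower with a median of 0.89, whereas in WT 0 of 23 were called and the median was 0.05. Tap1 and Psmb9 lie next to each other on chromosome 17 and are transcribed away from each other from starts 225 bases apart. The bases between those starts, and the bases before the starts of B2m and H2-T23, are shown. These 4 members are a selection from the list. All 4 were higher with tumor, H2-T23 by less than 2-fold, and other members called higher are not shown. They come from RefSeq on GRCm38.p6, on the plus strand for Tap1-Psmb9 (chr17:34187331-34187555) and B2m (chr2:122147437-122147686) and on the minus strand for H2-T23 (chr17:36032702-36032951), 5′ to 3′, with capitals marking matches to an interferon-stimulated response element or an NF-kB site.
Tap1-Psmb9: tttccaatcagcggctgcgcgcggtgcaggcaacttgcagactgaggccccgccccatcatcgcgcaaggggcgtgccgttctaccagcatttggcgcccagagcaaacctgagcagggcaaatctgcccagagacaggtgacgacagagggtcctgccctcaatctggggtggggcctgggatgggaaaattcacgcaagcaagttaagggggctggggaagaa
B2m: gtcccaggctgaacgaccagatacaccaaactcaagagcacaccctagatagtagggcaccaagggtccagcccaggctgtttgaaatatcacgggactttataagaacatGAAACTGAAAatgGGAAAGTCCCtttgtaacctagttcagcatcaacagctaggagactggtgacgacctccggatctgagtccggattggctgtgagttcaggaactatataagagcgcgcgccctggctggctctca
H2-T23: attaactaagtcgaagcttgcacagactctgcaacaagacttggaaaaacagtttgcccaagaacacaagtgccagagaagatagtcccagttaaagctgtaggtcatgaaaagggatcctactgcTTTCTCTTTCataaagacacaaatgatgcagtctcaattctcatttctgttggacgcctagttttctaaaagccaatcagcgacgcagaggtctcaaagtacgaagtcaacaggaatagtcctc
The search used 250 bases before each start and both strands. The interferon element was searched as TTTC, any 2 bases and TTTC, which 2.98% of 32851 mouse promoters of this length hold, the NF-kB site as the letters of the second run of capitals in B2m, which lie there on the minus strand (0.14%), and the gamma-activated site as TTCNNNGAA (7.02%). Among 20 class I list genes with a promoter listed, 3 held the interferon element, 1 the NF-kB site and 2 the gamma-activated site. B2m and H2-T23 are among the 3, and B2m is the 1 with the NF-kB site, so the marked stretches are not typical of the list. In B2m the first 2 motifs lie side by side without overlap, and none of the 3 motifs was found in the bases between Tap1 and Psmb9. A match describes letters and not a bound factor.

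The class I genes called were proteasome subunits, transporter subunits and chains of the class I molecule. Of the inducible proteasome subunits Psmb9 read 1.45 and 2.91 (2.75-fold) and Psmb8 2.10 and 3.42 (2.49-fold), while in WT Psmb9 read 1.52 and 2.27 and Psmb8 2.14 and 2.72. Psmb10 (0.17) and the proteasome activators Psme1 (0.13) and Psme2 (0.18) stayed close to 0. The transporter subunit Tap1 read -2.45 and -0.98 (2.77-fold) and Tap2 -2.19 and -1.02 (2.25-fold, or 0.88 on the log2 scale with normexp). In WT Tap1 read -1.68 and -2.05 and Tap2 -1.78 and -2.06, so these 2 genes were lower on the WT tumor array by less than 2-fold. B2m, the light chain, read 5.72 and 6.81, a 2.14-fold difference, against 5.95 and 6.15 in WT, and the mean of its probes gave 0.99. The classical heavy chain H2-K1 read 6.83 and 7.98 (2.23-fold) against 7.05 and 7.22 in WT. For both genes the Tlr3-deficient tumor array was the highest of the 4 and the Tlr3-deficient array without tumor the lowest.

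Nonclassical class I genes, which present to NK cells or specialised T cells, lay alongside. H2-M3, which presents formylated bacterial peptides, read -1.85 and 0.57 (5.37-fold), against -0.26 and 0.04 in WT, so it was the low value without tumor that set the difference. H2-Bl was 3.42-fold higher (0.63 and 2.41), H2-Q4 2.60-fold, H2-Q10 2.39-fold, H2-Q7 2.29-fold, and H2-T23 (Qa-1) differed by 0.89. The H2 genes share long stretches of sequence, and probes may read more than 1 of them. The peptide loading genes Tapbp (-0.01), Calr (0.00), Erap1 (-0.00) and Pdia3 (0.44) were not called. Nlrc5, the transactivator of class I genes, was at least 1.41-fold higher from a signal not above background. The summed level of the list was 464 without and 878 with tumor, and 519 and 572 in WT. The summed level of pan-leukocyte genes, given above, was also higher with tumor in both genotypes, and its part in the class I values was not tested.

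MHC class II genes, which type II cells express along with professional antigen-presenting cells, were higher by smaller amounts. The bright members Cd74 (7.30 and 7.64), H2-Ab1 (6.25 and 6.84), H2-Aa (4.08 and 4.88) and H2-Eb1 (3.85 and 4.47) were all higher with tumor by less than 2-fold. The members called were the peptide editors H2-DMb2 (-4.99 and -1.95, 8.18-fold), H2-Oa (-5.0 and -2.54, 5.52-fold) and H2-DMa (1.67 and 2.68, 2.01-fold), and the lysosomal protease Ctss, which trims the invariant chain (-0.80 and 1.84, 6.25-fold). H2-DMb2 and H2-Oa are typical of B cells and dim on all 4 arrays. In all 4 of 14 were higher with a median of 0.61, and 1 of 13 in WT with 0.33. Ciita, the class II transactivator, read 1.52 and 2.16.

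Interferon and RNA-sensing genes did not follow the class I genes in size. Of 28 type I interferon-stimulated genes tested 1 was higher and 2 lower, with a median of 0.23, against 3 higher and 0.48 in WT. Lower were Ifit1 (-0.89 and -2.18, 2.44-fold), which binds foreign RNA ends, and Ifit3 (1.75 and 0.62, 2.19-fold, or -0.98 with normexp), and Zbp1 was higher (2.04-fold, or 0.63 with normexp). Rsad2 (viperin) read -1.20 and -1.5 in the Tlr3-deficient pair and -2.55 and 0.37 in WT. Isg15 (-0.81 and -0.76) and Irf7 (-2.62 and -2.47) differed little. Among 19 interferon-gamma response genes 3 were higher, with a median of 0.49: the GTPase Tgtp1 (0.48 and 1.97, 2.81-fold), Ido1 (at least 2.80-fold, 0.56 with normexp) and Cxcl9 (at least 2.27-fold, 0.39 with normexp). The guanylate-binding proteins Gbp2, Gbp3 and Gbp5 differed by 0.51, 0.02 and 0.38, and Irf1, which is induced by interferon-gamma, read 4.51 and 4.68.

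Of the receptors and adaptors for double-stranded RNA and bacterial ligands, 1 of 16 was higher, with a median of 0.18. Tlr2, the lipoprotein receptor also found on neutrophils, read -1.69 and -0.50 (2.28-fold). The cytosolic RNA sensors Ifih1 (0.58 and 0.79) and Ddx58 (1.23 and 0.84), the TLR3 adaptor Ticam1 (-0.03 and 0.00), the kinase Tbk1 (0.22 and 0.47) and Irf3 (3.92 and 3.82) stayed within 1.5-fold. NF-kB feedback and target genes had 2 of 17 higher, with a median of 0.19. These were the inhibitor Nfkbie (-1.30 and 0.03, 2.51-fold) and Tnfaip2 (-2.05 and -0.56, 2.81-fold), while Nfkbia, the main feedback inhibitor, read 6.09 and 5.59 and Icam1 6.72 and 6.75.

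Acute phase and antimicrobial secretory genes were higher as a list (11 of 25 higher, or 7 with normexp, 0 lower, median 0.63), against 4 of 24 and 0.02 in WT. Fgg, the gamma chain of fibrinogen, read 0.04 without and 2.82 with tumor, a 6.84-fold difference, while in WT it read -0.94 and -1.27. Fga, the alpha chain, was at least 3.09-fold higher from below background (0.42 with normexp). Lrg1, a leucine-rich acute phase protein, read 5.61 and 6.90 (2.44-fold) against 5.77 and 5.44 in WT, and Bpifa1, an airway antimicrobial protein, 1.82 and 3.52 (3.24-fold) against 4.68 and 3.42. Bpifa1 was lowest on the Tlr3-deficient control array and highest on the WT array without tumor, and alike on the 2 tumor arrays. Ltf (9.71-fold), also a neutrophil granule gene, and Pigr (8.29-fold) led the list, and the antimicrobial peptidoglycan receptor Pglyrp1 read 1.21 and 2.80 (3.01-fold). The serum amyloid gene Saa3 (-1.23 and -1.10), Slpi (4.44 and 5.07) and Hp (6.19 and 6.60) were not called. Reg3g read 0.05 and 0.12 here and 1.98 and 4.64 in WT. Complement genes had 3 of 17 higher with a median of 0.24. Factor B, Cfb, read -0.90 and 0.74 (3.12-fold) and factor I, Cfi, -1.78 and -0.18 (3.02-fold), whereas C3 read 6.07 and 6.83 and Hc (C5) 8.03 and 7.95.

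**Figure D3:**
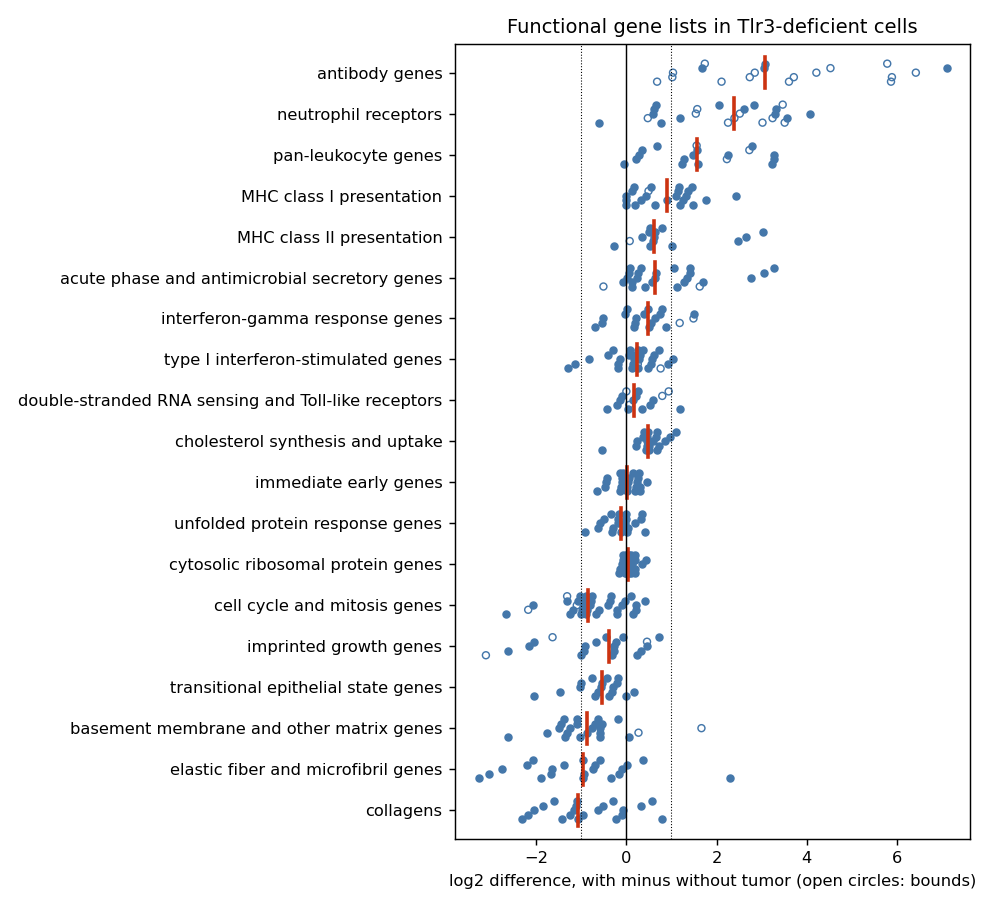
log2 difference with minus without tumor (horizontal axis) of the members of 19 functional gene lists in Tlr3-deficient cells, 1 point per gene, open where the value is a bound. Red bars are list medians and dotted lines mark 2-fold. The median is 3.08 for antibody genes, 0.89 for MHC class I genes, 0.01 for immediate early genes and -1.07 for collagens.

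On the lower side type I cell markers stood out among the marker lists. All 14 were below 0, 9 were at least 2-fold lower and the median was -1.16, whereas in WT 4 of 14 were lower with a median of -0.78. Sema3a, an axon and vessel guidance factor, read -0.76 and -2.86 (4.29-fold lower), Rtkn2 3.48 and 1.66 (3.52-fold), the matrix proteoglycan Spock2 2.87 and 1.12 (3.38-fold) and Hopx, a homeodomain factor of type I cells, 5.72 and 4.53 (2.28-fold). In WT Rtkn2 read 2.88 and 1.33 and Hopx 5.12 and 4.0, so both were also lower with tumor there, by 2.93-fold and 2.17-fold. Ager, the most widely used marker, read 5.43 and 4.74 and the water channel Aqp5 6.72 and 6.47, and neither was called. The summed level of the list was 477 without and 283 with tumor, and 331 and 222 in WT. The Tlr3-deficient array without tumor therefore had the highest sum of the 4. Genes of the transitional state between type II and type I cells were lower too (4 of 17, median -0.54), with Krt7 at 7.09 and 5.62 (2.79-fold) and Ccn2 at 4.26 and 2.22 (4.12-fold), but Krt8, the usual marker of that state, read 6.45 and 6.16 and Cldn4 -2.91 and -3.31.

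Elastic fiber genes held the widest measured difference on the lower side. Elastic fibers give the lung its recoil and are laid down by fibroblasts as alveoli form. Eln, tropoelastin (mm9 chromosome 5, 135179129 to 135179188), read -0.24 without and -3.52 with tumor, 9.70-fold lower, against -2.22 and -2.91 in WT. Fbn2, the fibrillin of developing tissue, read -1.95 and -5.0 (8.27-fold) against -3.37 and -3.20 in WT, and Mfap5, a microfibril glycoprotein, -1.02 and -3.77 (6.76-fold) against -2.24 and -3.12. For all 3 genes the Tlr3-deficient array without tumor was the highest of the 4 and the tumor array the lowest. Lox, the enzyme that crosslinks elastin and collagen, was 4.59-fold lower (-1.29 and -3.49), and Fbln5, which guides elastin onto microfibrils, 4.20-fold (3.80 and 1.73), with 2.88 and 1.44 in WT. Of 21 such genes 9 were lower and 1 higher, with a median of -0.96, against 3 lower, 1 higher and -0.32 in WT. The member called higher was Emilin2 (-2.28 and 0.03, 4.95-fold), which in WT read -2.36 and 0.06. Efemp1 (4.02 and 3.92) and Ltbp4 (3.65 and 3.49) were within 1.5-fold.

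Collagens were lower by a similar margin. Of 21 tested 11 were lower and 0 higher, with a median of -1.07, against 2 of 21 and -0.45 in WT. The fibrillar collagen Col3a1 read 3.54 and 1.22 (5.0-fold lower), Col5a2 -0.03 and -2.21 (4.54-fold), Col1a1 2.57 and 0.53 (4.10-fold) and Col1a2 4.51 and 2.91 (3.02-fold). In WT Col3a1 read 2.29 and 1.84 and Col1a1 1.72 and 0.86. For both genes the value without tumor in the Tlr3-deficient pair was therefore the highest of the 4. The collagens of the alveolar basement membrane were lower as well: Col4a3 read 1.49 and -0.36 (3.59-fold), Col4a4 3.20 and 1.78 (2.68-fold), Col4a1 4.96 and 3.78 (2.25-fold) and Col4a2 4.31 and 3.21 (2.14-fold). Col6a1 (3.49 and 3.19), Col13a1 (0.31 and 0.08) and Col14a1 (-1.95 and -2.02) were not called. Plod2, which hydroxylates collagen lysines for crosslinking, read 0.20 and -1.91 (4.30-fold lower).

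Other basement membrane and matrix genes followed, with 11 of 23 lower, 1 higher and a median of -0.88 (WT 2 of 22, -0.35). Fras1 and Frem2, which anchor epithelium to mesenchyme in the embryo, were 6.14-fold and 3.41-fold lower, Fras1 reading -2.16 and -4.78. The proteoglycans Hspg2 (perlecan, 3.33 and 1.83, 2.83-fold) and Agrn (agrin, 6.14 and 4.90, 2.36-fold), Sparc (6.90 and 5.44, 2.74-fold), the laminin chains Lamb1 (2.61-fold) and Lama3 (2.55-fold) and Nid1 (2.48-fold) were lower as well. Lamb3 (3.0 and 3.06) and Lamb2 (2.53 and 2.34), in the same family, stayed within 1.5-fold.

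Markers of the mesenchyme that makes much of this matrix were lower with 4 of 16 called and a median of -0.54 (WT 0 of 16, -0.34). Their summed level was 153 without and 95.6 with tumor, and 95.4 and 77.4 in WT, and all 16 were well above background on both Tlr3-deficient arrays. The members called were Col1a1, Col1a2, Col3a1 and Mfap4, which are also matrix genes. Tcf21, a transcription factor of lung fibroblasts, read -0.91 and -0.94, Dcn 2.98 and 3.30, Pdgfra 0.86 and 0.36, Pdgfrb 0.38 and -0.09 and Acta2 3.73 and 3.66. By their brightest probes these 5 members differed by less than 1.5-fold. The other measured Acta2 probes were lower with tumor, the brightest of them reading 2.26 and 0.95. With the mean of all probes 5 of the 16 markers were lower. Endothelial markers had 0 of 14 called and a median of -0.40, with Cdh5 at 2.55 and 1.94. What fibroblast RNA contributes to the matrix lists was not tested.

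Growth factors and morphogens of the lung were lower or near 0, with 8 of 42 lower (5 with normexp), 0 higher and a median of -0.28. Tgfb2 read 0.16 and -1.73 (3.71-fold lower) against -1.39 and -2.19 in WT, and Wnt3a 0.51 and -1.19 (3.24-fold). Sox9, a factor of embryonic distal lung epithelium, was at least 6.13-fold lower by its brightest probe but differed by -0.76 with the mean of its probes. The BMP and TGF-beta targets Id1 (2.58 and 1.22, 2.56-fold) and Id3 (3.39 and 2.09, 2.47-fold) were lower, and in WT they read 2.39 and 1.37 and 2.90 and 1.95. Fgf18, active during alveolar septation, was 2.18-fold lower (-0.89 with normexp). Fgfr2 (1.84 and 1.62), Shh (-1.30 and -1.12) and Fgf7 (-2.98 and -2.74) were not called. Vegfa, which type I and type II cells supply to capillaries, is a member of the type I marker list and read 5.13 and 4.31 by its brightest probe. Its other measured probes were more than 2-fold lower, the brightest of them reading 4.54 and 3.15.

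Genes of the cell cycle and mitosis were lower with tumor in Tlr3-deficient cells, with 11 of 34 lower, 0 higher and a median of -0.84, against 0 of 32 called and a median of -0.02 in WT. Kntc1, a kinetochore protein, read -1.83 and -4.49 (6.33-fold lower), Kif11, the spindle motor, -3.21 and -5.28 (4.19-fold, or -0.89 with the mean of its probes) and Ttk, the checkpoint kinase, was at least 4.52-fold lower. The proliferation marker Mki67 read 0.42 and -0.59 (2.02-fold, -0.94 with normexp) and Top2a -2.99 and -4.07 (2.11-fold, -0.74 with normexp). In WT Mki67 read 0.07 and -0.10. The replication genes Mcm2 (0.14), Mcm5 (0.22), Mcm6 (0.22), Tyms (-0.09) and Pcna (-0.21) differed little, while the cyclins Ccne1 (2.49-fold) and Ccne2 (2.28-fold), which act at the start of DNA replication, were lower by their brightest probes but not with the mean of all probes. With normexp 4 of 34 were lower, and 5 of 34 with the mean of all probes, while the median stayed between -0.88 and -0.53 over all settings.

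Imprinted growth genes, expressed from 1 parental copy and known to decline in many tissues after birth, were lower in part (5 of 20 lower, 0 higher, median -0.38, against 4 of 20 lower, 1 higher and -0.24 in WT). Peg3, a zinc finger protein, read -2.64 and -5.27 (6.19-fold lower), the noncoding RNA Meg3 1.83 and -0.33 (4.46-fold), and Mest, a hydrolase-like protein, -0.79 and -2.84 (4.14-fold). Mirg, the host RNA of a microRNA cluster next to Meg3, was at least 8.66-fold lower and Rian, of the same locus, at least 3.11-fold (-0.89 with normexp). In WT Meg3 read 1.28 and 0.22, a 2.10-fold difference in the same direction. Igf2 (-1.17 and -0.84), H19 (-3.43 and -3.87), Dlk1 (-3.70 and -3.94) and Plagl1 (3.57 and 3.25) were not called. Age is not given in the labels, so an age difference between the arrays cannot be told apart from the tumor.

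**Figure D4:**
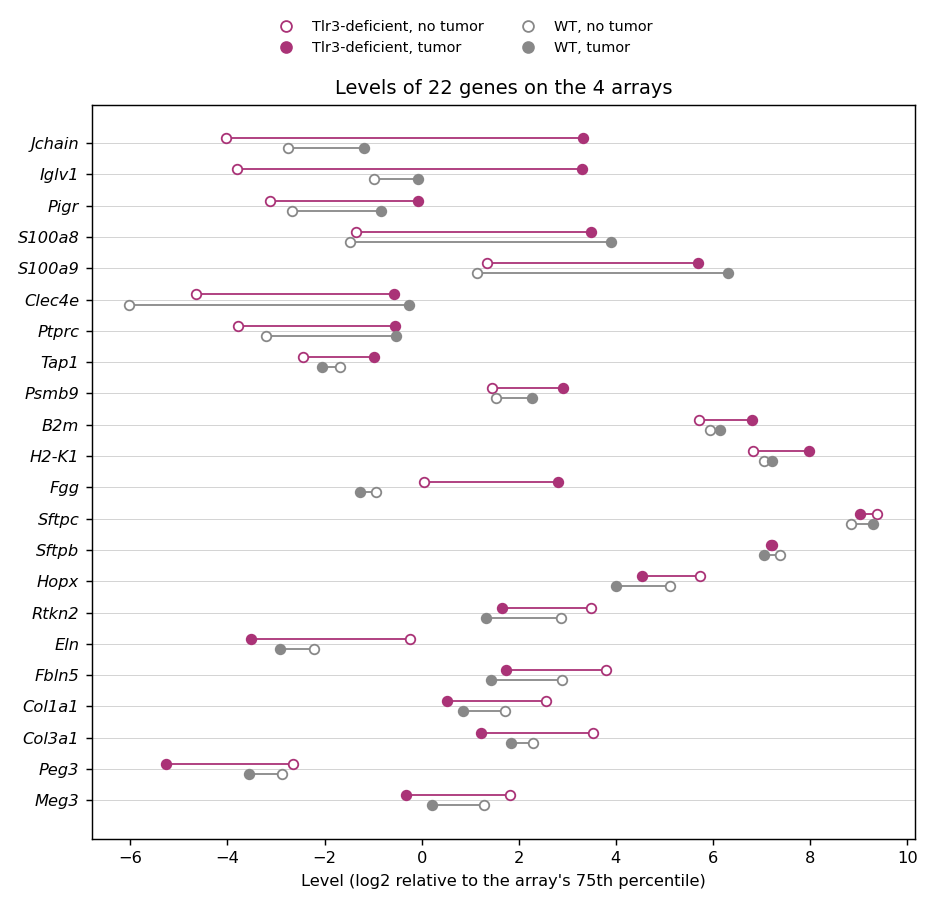
Levels of 22 named genes (log2 relative to the array's 75th percentile, horizontal axis) on the 4 arrays, open circles without and filled circles with tumor, purple for Tlr3-deficient and grey for WT, with lines joining the 2 arrays of a genotype. S100a8 and Ptprc span like ranges in both genotypes, whereas Jchain, Fgg, H2-K1 and Eln span wider ranges in the Tlr3-deficient pair.

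Circadian and glucocorticoid genes were lower for some members. Per1, a clock repressor also induced by glucocorticoids, read 1.68 and -0.56 (4.73-fold lower), Ciart -2.88 and -4.53 (3.12-fold, -0.74 with normexp) and Per2 -0.18 and -1.53 (2.56-fold, -0.89 with the mean of its probes). The activator Arntl, which peaks opposite to the Per genes, read 0.56 and 1.42 and Dbp 2.69 and 2.74. In all 3 of 18 clock genes were lower with a median of -0.07, against 6 lower, 2 higher and -0.52 in WT, where Dbp read 4.02 and 1.33. The hour of collection is not given in the labels. Of 13 glucocorticoid-induced genes 3 were lower, with a median of -0.52: Per1, Fkbp5, which binds the receptor's chaperone (-2.19 and -3.99, 3.49-fold), and the kinase Sgk1 (4.60 and 3.37, 2.33-fold, or -0.77 with the mean of its probes). In WT Fkbp5 read -1.85 and -3.02. Scnn1g, a subunit of the epithelial sodium channel that clears alveolar fluid, was 2.46-fold lower (2.96 and 1.66) and 2.54-fold lower in WT.

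Few lipid synthesis and antioxidant genes were called. Cholesterol synthesis and uptake genes had a median of 0.49 with 19 of 20 above 0 and 1 called, against -0.02 in WT. Fdps, which makes farnesyl diphosphate, read 2.41 and 3.51 (2.14-fold), Sqle 2.55 and 3.40, Lss 0.15 and 1.11 and Hmgcs1 4.20 and 4.70. In WT Fdps read 3.23 and 3.07, so the Tlr3-deficient array without tumor was the low value. Fatty acid and phospholipid genes had 2 of 24 higher with a median of 0.19, Acacb at -2.14 and -0.75 (2.61-fold), while Fasn (8.46 and 8.43), which feeds surfactant lipid, was level. NRF2 antioxidant genes had 0 of 21 called with a median of 0.23. Cytochrome P450 genes had 3 of 17 higher and 1 lower, with a median of 0.37. Cyp2a4 and Cyp2a5, near-identical copies that differ by sex in other organs, were 2.62-fold and 2.39-fold higher and uncertain as to which was read, and in WT both were lower with tumor (2.85 and 1.52 for Cyp2a4). Cyp1a1, the main target of the aryl hydrocarbon receptor, was 2.29-fold lower (-0.19 and -1.38), and 8.31-fold lower in WT.

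Few genes of the stress programs were called. Immediate early genes, which respond within minutes to handling and sorting, had 0 of 23 called and a median of 0.01, with Fos at 6.44 and 6.63 and Egr1 at 6.66 and 6.68. Unfolded protein response genes had 0 of 21 called, 15 below 0 and a median of -0.12, with the chaperone Hspa5 at 6.01 and 5.43. Heat shock genes had 1 of 14 lower (Hsph1, 3.80 and 2.43, 2.59-fold), 12 below 0 and a median of -0.31, and in WT 2 of 14 lower and -0.57. Tight and adherens junction genes had 0 of 17 called and a median of -0.25, with Cldn18 at 5.18 and 4.86 and Cdh1 at 4.53 and 4.39.

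Of 5 erythroid markers tested 1 was lower and 0 higher, and of 9 platelet markers 2 were lower and 0 higher, whereas in WT 3 of 6 and 4 of 8 were higher and 0 lower. The hemoglobin genes Hba-a1 (8.02 and 6.80, 2.34-fold lower) and Hbb-bt (8.53 and 7.57, under 2-fold), each with a near-identical copy, were bright on all 4 arrays and read 7.02 and 7.86 and 7.96 and 8.61 in WT. The median of 5 erythroid markers was -0.58 and that of 9 platelet markers -0.79, with Gp9, part of the von Willebrand factor receptor, at -0.15 and -1.51 (2.57-fold) and Treml1 at 0.22 and -0.89 (2.16-fold, -0.95 with normexp). The summed platelet level was 8.86 without and 5.37 with tumor, and 2.79 and 5.71 in WT. The control array of the Tlr3-deficient pair thus carried the highest platelet sum and the highest erythroid sum (632, against 302, 379 and 624 on the others).

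Some of the widest differences have not been named above. Ifitm6, a membrane protein of myeloid cells, read -4.87 and -0.35 (22.8-fold) and Wfdc17 -4.19 and 0.28 (22.1-fold), and both were as low and as high in WT (-4.78 and -0.32, and -5.13 and 0.84). Slc6a20a, a proline transporter, read -2.32 and 1.54 (14.5-fold), against -5.35 and -2.76 in WT, so it was higher with tumor in both genotypes and higher in both Tlr3-deficient arrays. Slc6a20a belongs to the list of alveolar ion and amino acid transport genes. Of 20 such genes tested 1 was higher and 2 lower, with a median of -0.06. Gigyf2, a translational repressor, was 11.1-fold higher by its brightest probe but differed by 0.24 with the mean of its probes. On the lower side Veph1 read -0.36 and -3.35 (7.93-fold), Ecrg4 -2.39 and -5.11 (6.57-fold) and Evl, an actin regulator, 1.26 and -1.44 (6.50-fold). In WT these 3 genes read -2.19 and -2.20, -2.88 and -3.58, and 0.27 and -0.63. Their value on the Tlr3-deficient control array was the highest of the 4. Ddc, which makes dopamine and serotonin, was 4.46-fold lower by its brightest probe (-0.65 with the mean of its probes).

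Placed side by side over the 56 gene lists, the medians of the 2 genotypes were alike for neutrophil markers (2.46 and 2.46), neutrophil receptors (2.40 and 2.30 in WT) and pan-leukocyte genes (1.56 and 1.53). With normexp these medians were 1.37, 1.14 and 1.06 in Tlr3-deficient cells. They were farther apart for antibody genes (3.08 and 0.87), MHC class I genes (0.89 and 0.05), cell cycle genes (-0.84 and -0.02) and collagens (-1.07 and -0.45). The 2 pairs share no array, but with 1 array in each group the difference between genotypes was not tested. The WT array with tumor and the Tlr3-deficient array without tumor lay on the same slide, and the remaining arrays on separate slides. Slide thus cannot be told apart from genotype and tumor here.

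**Figure D5:**
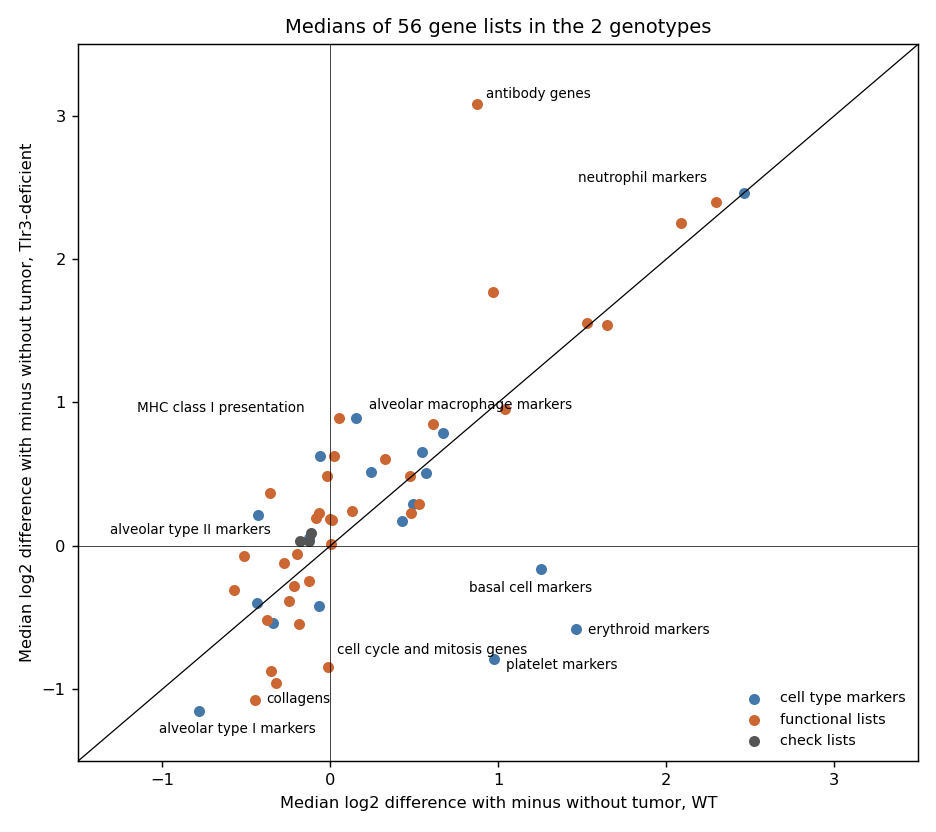
Median log2 difference with minus without tumor of 56 gene lists in WT (horizontal axis) and Tlr3-deficient cells (vertical axis), 1 point per list, coloured by kind of list, with the line of equal medians. Neutrophil markers lie on the line at 2.46, antibody genes lie above it and erythroid and platelet markers lie below 0 in Tlr3-deficient cells and above 0 in WT.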

How the data were processed

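Total RNA of sorted type II cells was hybridised in 1 colour to 4 Agilent mouse arrays, 1 for each genotype and tumor state, and spots were quantified with Agilent Feature Extraction, per the submitters' processing notes. The deposited scanner tables hold a processed signal intensity per spot, background-subtracted per the file headers. The deposited series table holds log2 values, whose preparation the labels do not describe and which served as an alternative. Each array's log2 processed intensity was centred on its 75th percentile, without control spots and outlier-flagged spots, and spots of a probe were averaged. For each gene the probe brightest on average across all 4 arrays was used, so values of other probes can differ. Probes were named by accession through RefSeq (GRCm38.p6 table, 27668 of 41174 matched), otherwise by the scanner file's own name, and coordinates are the file's mm9. Probes on chromosomes X and Y were left out.

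With 1 array in each group no p-value was computed. A gene counted as called at 2-fold, and was tested when either array had its probe well above background. Named were the 30 measured genes with the largest and the 30 with the smallest difference, the 10 largest bounds each way, members of the gene lists, the 6 brightest antibody genes and the genes that check the labels, from which the text gives a selection. The members and lists were chosen with earlier results of these data known. The alternatives were quantile normalization, median centring, normexp background correction (offset 50, limma 3.58.1 in R 4.3.3), the mean of all probes, other filters, other fold thresholds and the series table. Scripts ran in Python 3.11.15 with numpy 2.4.6, pandas 2.3.3 and scipy 1.17.1 and were tested on simulated data.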

Additional observations from a re-analysis of the deposited data

Results flagged for a closer look

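Erythroid markers had a median log2 difference, with minus without tumor, of -0.58 in Tlr3-deficient cells and 1.46 in WT, and platelet markers -0.79 and 0.97. Both lists were picked out because their medians lie on opposite sides of 0 in the genotypes, and the difference between genotypes was not tested. The Tlr3-deficient array without tumor had the highest summed level of both lists among the 4 arrays. It lay on the same slide as the WT array with tumor, while the remaining arrays lay on separate slides. Slide therefore cannot be told apart from genotype and tumor in this contrast.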

How the results depend on the processing

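No paired analysis was possible because each group is 1 array, and no array could be left out. Against 801 genes higher and 669 lower, normexp gave 407 and 308 (397 and 302 of them shared with the main calls), no filter on dim probes 1425 and 1501, genes well above background on both arrays 484 and 395, a 1.5-fold threshold 1805 and 1735 and a 4-fold threshold 265 and 120. Quantile normalization, median centring, the mean of all probes, sex-chromosome probes kept, outlier spots kept and the series table gave 746 to 1129 higher and 628 to 844 lower. Higher genes were 54.5% of calls, 68.8% at 4-fold and 48.7% with no filter, where the median of all genes was -0.15. Of 279 called named genes 67 were under 2-fold with normexp, 28 with the mean of all probes and 2 in the series table, and none took the opposite direction. The median changed sign for melanocytic check genes with no filter (0.63 to -0.15) and for transport genes measured on both arrays (-0.06 to 0.04). Dim genes, near background, are the least certain.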
